A study of Drosophila melanogaster with 6 samples.

Results

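The non-coding RNAs roX1 and roX2 were measured in adult fly heads by 6 probes, 4 for roX1 and 2 for roX2, of 32162 non-control probes on the array. A probe was taken as a member when its RefSeq accession belonged to either gene. Drosophila males have 1 X chromosome and raise the output of its genes, a process called dosage compensation. The MSL complex, made of MSL proteins and a roX RNA, coats the male X chromosome and acetylates its chromatin. Either roX RNA can serve in the complex, both genes lie on the X chromosome, and both RNAs were first known as male-specific transcripts of the adult brain.

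RNA from heads of 3 wild-type preparations (strain W1118, TOP3B wildtype, called WT) and 3 mutant preparations (TOP3B26 in the W1118 strain background, called Top3b26) was hybridized to 1 Cy3 array each. The mutant allele lies in Top3beta, an X-linked topoisomerase gene, and came from the remobilization of a P-element. All flies were adults grown under the same conditions, and whole heads were collected by freezing and sieving. The mutant group is a single allele, the heads in a preparation were pooled, and the labels do not give the sex of the flies. In such RNA, more male cells and more roX RNA per male cell cannot be told apart.

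The non-control spots had a median signal 57.2 to 186 times that of the negative controls, and between 71.1% and 81.2% of them were well above background. Arrays WT 1, WT 2 and Top3b26 1 were on slide 1, and the other 3 were on slide 2. Within a group the arrays spread more in Top3b26, where the median SD of the 23003 tested probes was 0.54 (log2), than in WT, where it was 0.23. Of the marker lists for head neurons and photoreceptors, glia, testis, ovary and female fat body, 0 genes were named on the array, so the labelled tissue was not checked against them.

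Both roX RNAs were readily measured in heads of both genotypes. All 6 probes were well above background on all 6 arrays, with 0 saturated and 0 outlier spots. The brightest was the roX1 probe A_09_P108980, whose processed signal was 40293, 57201 and 107296 in WT (arrays 1 to 3) and 99587, 53612 and 103616 in Top3b26. The dimmest was the roX2 probe A_09_P133800, at 574, 777 and 1746 in WT and 1850, 1140 and 2275 in Top3b26. Even there the signal was at least 115 times the median of the negative controls. These signals follow the overall brightness of each array, so levels are given below relative to the array. The z-transformed level is the log2 signal minus the array mean, brought to a common SD, and the median-centred level is the log2 signal minus the array median.

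The comparison of the genotypes asks whether the roX RNAs change in heads when Top3beta is mutated. In limma, 0 of the 6 probes reached an adjusted p of 0.05, the threshold for a call, where 203 of the 23003 tested probes (0.882%) were called. The difference, Top3b26 minus WT, was above 0 at 5 of the 6 probes, where it was above 0 at 37.1% of all tested probes. An unadjusted p under 0.05 was found at 1 of the 6, the roX2 probe A_09_P133800, and at 11.2% of all tested probes.

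Probe A_09_P133800, for the roX2 transcript NR_002104, stood apart most clearly. Its z-transformed level in WT was 0.75, 1.08 and 1.12 (arrays 1 to 3, as in all lists below), and in Top3b26 it was 1.91, 2.34 and 1.38. The 3 mutant arrays were all above the 3 WT arrays, as at 4.85% of tested probes, with Top3b26 3 the lowest of its group. The WT mean was 0.98 ± 0.20 and the Top3b26 mean 1.88 ± 0.48 (log2, SD, n = 3), a difference of 0.89 ± 0.30 (SE), or 1.86-fold. The limma adjusted p was 0.349, and the 95% interval of the difference ran from 0.14 to 1.64.

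The other roX2 probe, A_09_P091310 for the transcript NR_047796, was at 2.76, 3.65 and 3.61 in WT, against 3.81, 4.58 and 3.26 in Top3b26. Here the groups overlapped, because Top3b26 3 lay below WT 2 and WT 3. The difference was 0.54 ± 0.43 (log2, SE), with a 95% interval from -0.53 to 1.61 and a limma adjusted p of 0.732. Without Top3b26 2 the difference was 0.19. Both roX2 probes were highest on Top3b26 2 and lowest on WT 1.

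Of the roX1 probes, A_09_P108980 for the transcript NR_002098 was at 6.93, 7.24 and 7.08 in WT, against 7.73, 7.77 and 6.93 in Top3b26. Top3b26 1 and 2 were above every WT array, and Top3b26 3 was level with the lowest. The difference was 0.39 ± 0.29 (log2, SE), with a 95% interval from -0.33 to 1.12 and a limma adjusted p of 0.711.

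Probe A_09_P091170 is for the roX1 transcript NR_002097. The WT levels were 5.30, 5.79 and 5.86, and those of Top3b26 were 6.13, 6.01 and 5.71. The groups overlapped, with WT 1 alone below all others. The difference was 0.30 ± 0.25 (log2, SE), the most precise of the 6, with a 95% interval from -0.32 to 0.92 and a limma adjusted p of 0.742.

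The remaining probes are for NR_002098 as well, and they differed from each other. Probe A_09_P182115 was at 2.53, 3.41 and 3.11 in WT, against 3.51, 5.05 and 3.29 in Top3b26. Its difference of 0.93 ± 0.54 (log2, SE) came mostly from Top3b26 2, and without that array it was 0.38. The 95% interval ran from -0.39 to 2.26 and the limma adjusted p was 0.619. Probe A_09_P090105 was the only one with a lower mean in Top3b26. Its WT levels were 5.55, 5.99 and 5.99 and its Top3b26 levels 5.57, 6.49 and 5.03, so that the mutant arrays held both its highest and its lowest level. Its difference was -0.15 ± 0.41, with a 95% interval from -1.16 to 0.87 and a limma adjusted p of 0.939.

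**Figure D1:**
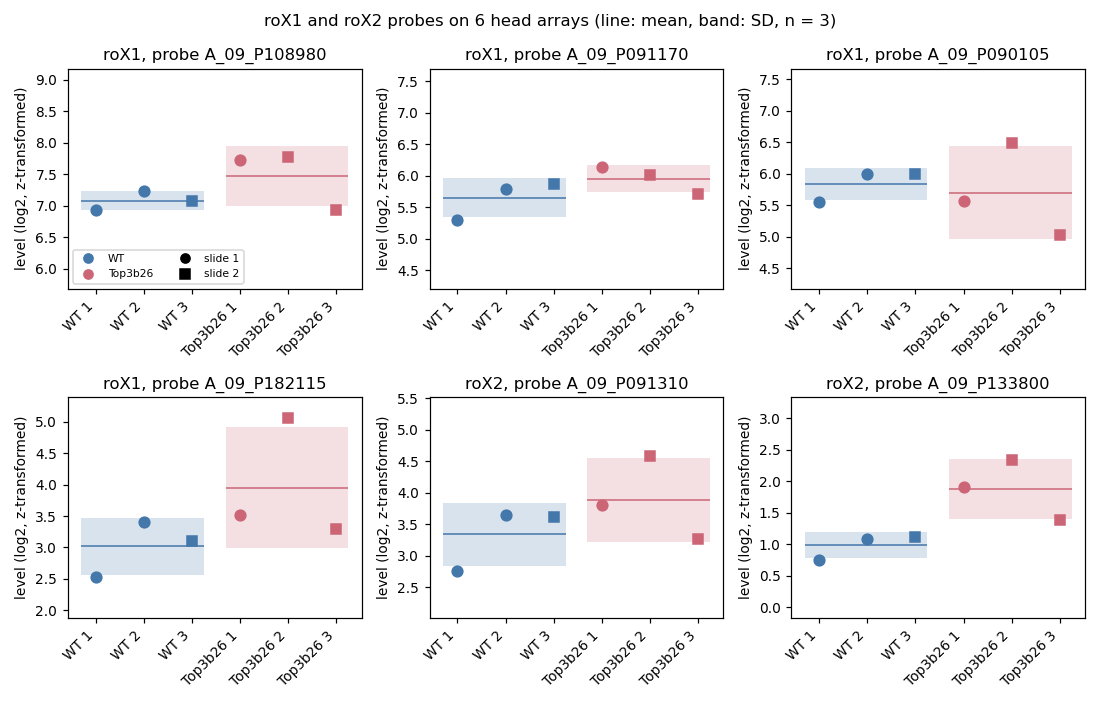
Level of each roX1 and roX2 probe (log2, z-transformed, vertical axis) on the 3 WT (blue) and 3 Top3b26 (red) arrays, with circles for slide 1, squares for slide 2, lines for group means and bands for the SD. The groups do not overlap at the roX2 probe A_09_P133800 and overlap at the other 5 probes, and Top3b26 2 is the highest array at 5 of the 6 probes.

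When the probes of a gene were averaged on each array, the level of roX1 in WT was 5.08, 5.61 and 5.51, and in Top3b26 it was 5.73, 6.33 and 5.24. Top3b26 1 and 2 were above every WT array and Top3b26 3 was not. The difference was 0.37 ± 0.34 (log2, SE), or 1.29-fold, with a 95% interval from 0.720-fold to 2.32-fold and a limma adjusted p of 0.764 over 18141 genes or identifiers. For roX2 the WT levels were 1.76, 2.37 and 2.36, and the Top3b26 levels 2.86, 3.46 and 2.32. Top3b26 3 was again within the range of the WT arrays. The difference was 0.72 ± 0.36, or 1.64-fold, with a 95% interval from 0.882-fold to 3.07-fold and a limma adjusted p of 0.551. Both intervals include no change. Without Top3b26 2 the differences were 0.09 for roX1 and 0.43 for roX2.

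Within each slide both gene means were higher in Top3b26. The difference for roX1 was 0.39 on slide 1 (2 WT arrays and 1 Top3b26 array) and 0.27 on slide 2 (1 and 2 arrays). For roX2 it was 0.80 and 0.53. Among single probes, A_09_P133800 differed by 0.99 and 0.74, A_09_P090105 by -0.20 and -0.23, and A_09_P091170 by 0.59 on slide 1 and 0 on slide 2. After median centring A_09_P091170 differed in sign between the slides, by 0.28 and -0.18.

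The size and the separation of the groups depended on the scaling. The z-transformation left the tested probes as a whole with a median difference of -0.15 (log2), and median centring left one of -0.38. A further scaling, called median-difference scaling, shifts each array until its probes lie, in the median, at their own means over the arrays, and left 0.03. Relative to these shifts the roX probes lay at about the same place, which follows from the arithmetic and is no result about roX. Median centring and median-difference scaling each shift a whole array, so between them the order of the differences cannot change. The z-transformation also brings the arrays to a common SD, and it changed the order little. The difference at A_09_P133800, for example, was above that of 92.2% of tested probes after the z-transformation and of 92.5% after median centring. The corresponding values for A_09_P090105 were 50.6% and 51.8%, close to the middle of all probes.

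After median centring the spread within Top3b26 was wider. The level of roX1 was 5.01, 5.87 and 5.62 in WT against 5.53, 6.59 and 4.83 in Top3b26. That of roX2 was 1.71, 2.60 and 2.48 against 2.68, 3.65 and 1.94. The groups overlapped for both genes, and Top3b26 3 was the lowest mutant array at all 6 probes. The differences were 0.15 ± 0.54 for roX1 and 0.49 ± 0.54 for roX2 (log2, SE), with limma adjusted p of 0.933 and 0.785. Of the 6 probes, 0 had mutant arrays all above the WT arrays, where 2.20% of tested probes did.

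After median-difference scaling the groups separated at 5 of the 6 probes, all but A_09_P090105, with the mutant arrays higher, where 11.0% of tested probes did so. On this scale a level is a shifted log2 signal. For roX1 the WT levels were 13.94, 14.33 and 14.22, against 14.67, 15.00 and 14.51 in Top3b26. For roX2 they were 10.65, 11.07 and 11.08 against 11.83, 12.07 and 11.62. For both genes all mutant arrays were above all WT arrays, which held for 11.4% of genes or identifiers. The differences were 0.56 ± 0.19 and 0.90 ± 0.20 (log2, SE), neither of them called, with limma adjusted p of 0.257 and 0.108.

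A single roX probe was called on this scale, A_09_P133800 of roX2. It rose from a WT mean of 9.75 ± 0.10 to a Top3b26 mean of 10.83 ± 0.13 (log2, SD, n = 3), a difference of 1.08 ± 0.13 (SE), or 2.11-fold, with a limma adjusted p of 0.0248. On the same scale 2.30% of tested probes were called, 0.843% with a rise. With any single array left out the difference was between 1.02 and 1.15, and the call held without Top3b26 3 (limma adjusted p = 0.0479) but not without Top3b26 1 (0.109), Top3b26 2 (0.0509), WT 1 (0.12), WT 2 (0.144) or WT 3 (0.14). The probe was not called by limma after the z-transformation, median centring, a 75th percentile shift or quantile normalization.

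A further reading set each signal over the negative controls, with no correction for the overall brightness of an array. On this measure the median non-control spot was at 105, 68.4 and 94.5 in WT, against 132, 57.2 and 186 in Top3b26. As a multiple of the negative controls of its own array, A_09_P133800 was at 123, 115 and 157 in WT, against 318, 234 and 264 in Top3b26. The mutant arrays were all above the WT arrays here and at 4 of the 6 probes in all, where 7.65% of tested probes did so. The exceptions were A_09_P091170 and A_09_P090105.

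**Figure D2:**
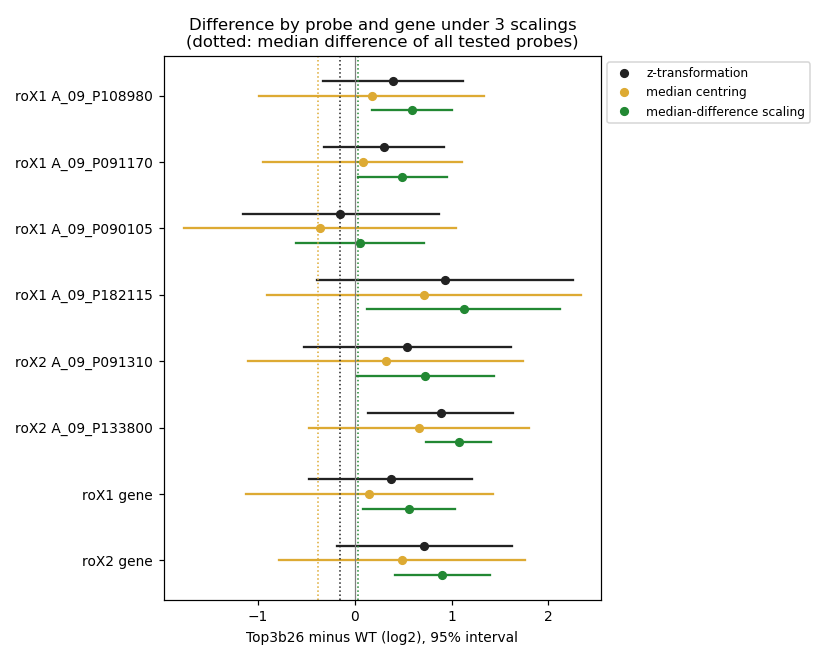
Difference between Top3b26 and WT (log2, horizontal axis) with its 95% interval for the 6 probes and the gene means under 3 scalings, and the median difference of all tested probes as dotted lines. The order of the probes is the same under each scaling, with A_09_P090105 lowest and A_09_P182115 and A_09_P133800 highest. Between median centring and median-difference scaling it is the same by construction. The intervals are narrowest after median-difference scaling.

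**Figure D3:**
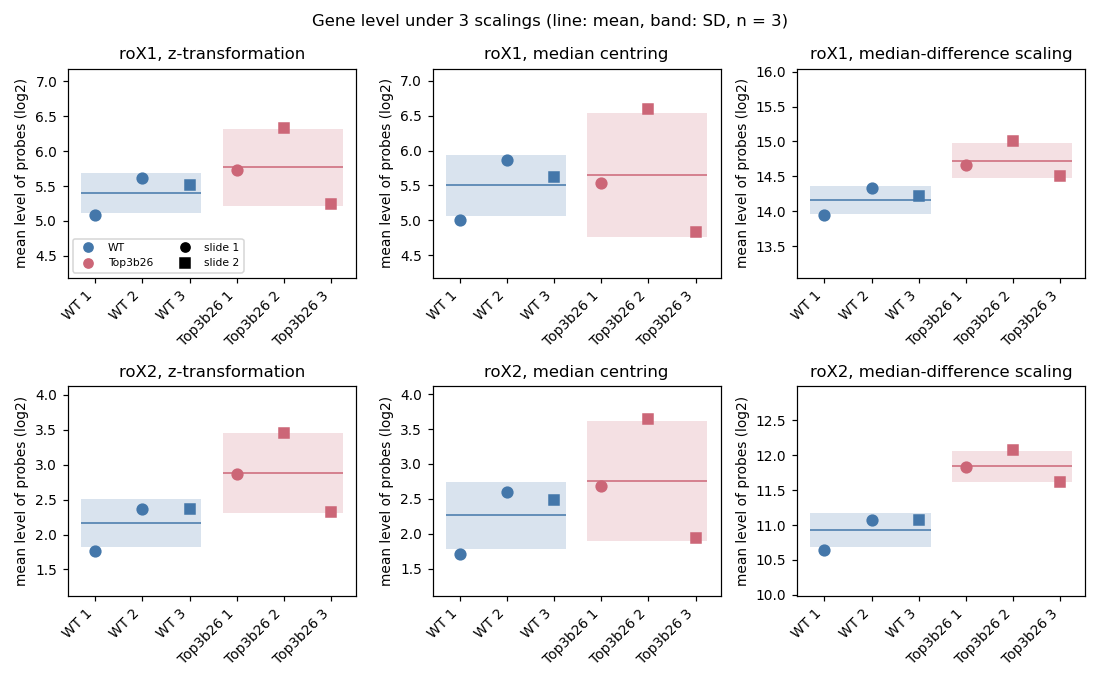
Mean level of the probes of roX1 and roX2 (log2, vertical axis) on each array under 3 scalings, with lines for group means and bands for the SD. The groups overlap after the z-transformation and median centring and do not overlap after median-difference scaling.

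The ratio of signals at different probes of the same array does not depend on the shift given to that array. The log2 ratio of roX1 to roX2 was taken as the mean log2 signal of the roX1 probes minus that of the roX2 probes. It was 3.30, 3.27 and 3.13 in WT, against 2.84, 2.94 and 2.90 in Top3b26. All mutant arrays were below all WT arrays, with means of 3.23 ± 0.09 and 2.89 ± 0.05 (SD, n = 3), so that roX2 was higher relative to roX1 in Top3b26 by 0.34 (log2). Of all genes or identifiers, 48.1% had a ratio to roX1 that did not overlap between groups, and 2.20% one that was higher in Top3b26. The ratio depended on the choice of probes, and between the brightest probe of each gene the difference was -0.15 and the groups overlapped. The groups also overlapped after quantile normalization and after another background correction.

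Among the probes of 1 gene, 1 of 7 pairs had ratios that did not overlap between groups, where 18.0% of such pairs on the array did. This was A_09_P090105 over A_09_P182115, both for the roX1 transcript NR_002098. Their log2 ratio was 3.0, 2.60 and 2.87 in WT, against 2.04, 1.47 and 1.73 in Top3b26, a difference of -1.07. At 1 of 7 pairs, the count is no higher than the share on the whole array. The ratio of the roX2 probes, A_09_P091310 over A_09_P133800, was 2.0, 2.59 and 2.48 in WT, against 1.88, 2.30 and 1.87 in Top3b26, and the groups overlapped.

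**Figure D4:**
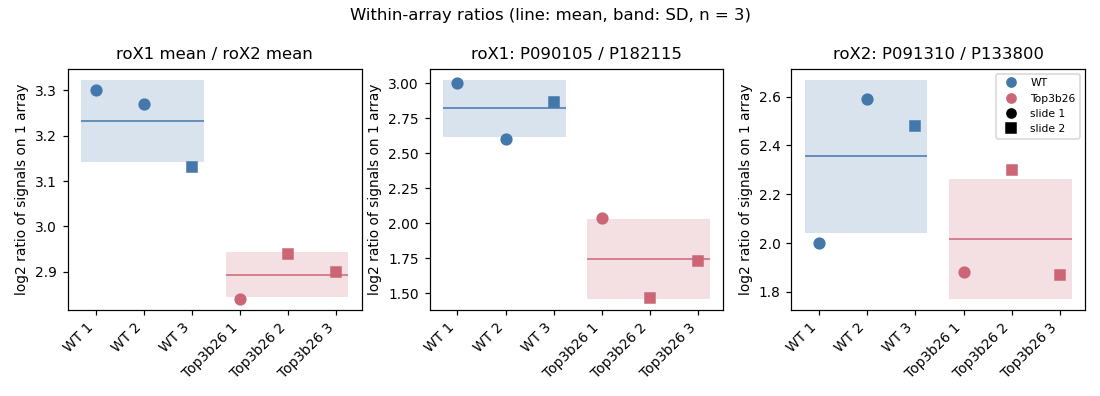
Log2 ratio of signals on the same array (vertical axis) for roX1 over roX2 and for 1 pair of probes of each gene, with lines for group means and bands for the SD. The groups do not overlap in the first 2 panels, where the mutant arrays are lower, and overlap in the third.

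Across the 6 arrays roX1 and roX2 followed the same order after the z-transformation, from WT 1 as the lowest to Top3b26 2 as the highest. The order rests in part on small gaps, with roX2 at 2.32, 2.36 and 2.37 on Top3b26 3, WT 3 and WT 2. After median centring the lowest array was Top3b26 3 for roX1 (4.83) and WT 1 for roX2 (1.71). For the z-transformed levels, Pearson's r between roX1 and roX2 was 0.960 and Spearman's rho was 1.0, as a description over 6 arrays that share a normalization. Without Top3b26 2 and WT 1, the arrays farthest from the median, r was 0.727. Ranked by r with roX1, roX2 was at place 186 of 15598 genes or identifiers well above background on all arrays, and 6.12% of these had an r above 0.9. Among the 132 with gene names its r was the highest over all 6 arrays after the z-transformation, before the nuclear stress RNA Hsromega (r = 0.952) and the long non-coding RNA CR44042 (r = 0.949). This order did not hold after median centring, where r was 0.976 for Hsromega and 0.958 for roX2, nor without the same pair of arrays, where it was 0.892 and 0.727. Of all identifiers, TC241492 (r = 0.998) and FBtr0079271 (r = 0.997) were most like roX1. For roX2 the first places went to FBtr0336676 and NP028828, both with an r of 0.999, and among named genes to roX1, the antisense RNA CR44031 (r = 0.942) and CR44042 (r = 0.925). After median centring CR44031 was above roX1 (0.966 against 0.958), as it was without Top3b26 2 and WT 1 (0.844 against 0.727).

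The arrays also differed in the level of 80 tested probes named for adult testis cDNA clones. Their median z-transformed level was 0.28, -1.0 and -0.61 in WT, against 0.94, -1.70 and 1.94 in Top3b26. After the z-transformation, in both genotypes, the lower the testis clones were on an array, the higher roX1 was, and this order also held after median-difference scaling. For roX2 it held within Top3b26 on both scales. Within WT, WT 1 was the lowest for roX2, but WT 2 and WT 3 were about level on both scales (2.37 and 2.36 after the z-transformation). As a multiple of the negative controls, Top3b26 2 was the highest array at 1 of the 6 probes, against 5 after the z-transformation. The roX1 probe A_09_P108980, for example, was then at 17100, 11000 and 12000 in Top3b26, with Top3b26 2 the lowest of its group. The order with the testis clones is one of 3 arrays per group. The pattern of the roX RNAs over the 6 arrays was shared by others, with an r above 0.9 at 6.12% of genes or identifiers for roX1 and 2.92% for roX2. The part of the testis clone transcripts in the roX levels was not tested. Of the other genes of dosage compensation (msl-1, msl-2, msl-3, mle, mof, Clamp, JIL-1, Unr and Sxl), 0 of 9 were named on the array.

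**Figure D5:**
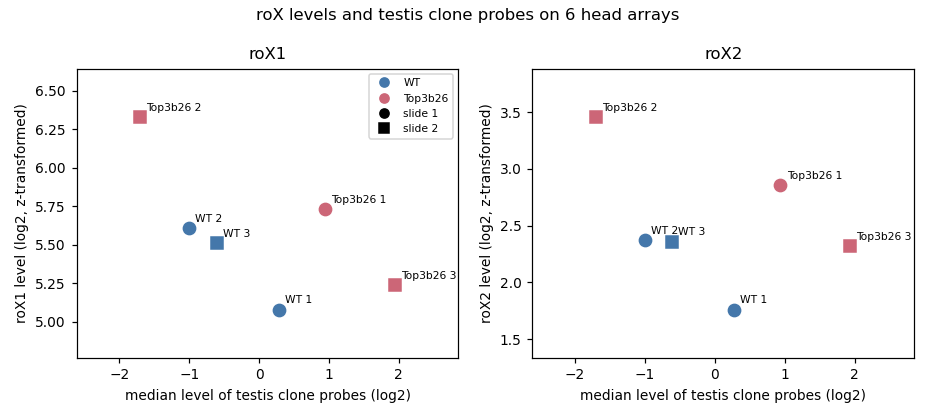
Gene level of roX1 and roX2 (log2, z-transformed, vertical axes) against the median level of 80 testis clone probes (log2, horizontal axes) on each array. Within WT and within Top3b26 the array with the lowest testis clone level has the highest roX level, and Top3b26 2 is the extreme of both.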

How the data were processed

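Per the file headers, the deposited intensity values are Cy3 signals of an Agilent Drosophila array, background-subtracted and spatially detrended by Feature Extraction 11.5.1.1 and not normalized between arrays. The authors also deposited score values, z-scores of log signal, which were used as an alternative. Here the log2 signals of the 43602 non-control spots were z-transformed on each array and then returned to a log2 scale through the mean SD of the arrays (3.89). Outlier spots were left out and spots of a probe averaged. Tested probes were those well above background on all arrays of either group. Top3b26 was compared with WT in limma 3.58.1 under R 4.3.3 (lmFit and eBayes, no covariate), with Benjamini-Hochberg adjustment over all tested probes, or over all genes or identifiers for means of probes. The fit was tested on simulated data. A plain comparison of the group means by each probe's own variance, at an unadjusted p of 0.05, was an alternative.

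Accessions were matched to a table of RefSeq genes (Release 6 assembly), used for names only, which named 202 of the 23003 tested probes (0.878%). Every roX1 and roX2 probe was described. Named genes of similar pattern were the 3 with the highest Pearson's r, besides the 2 identifiers with the highest r of all. The members and lists were chosen with earlier results of these data known. With 3 arrays per group, their number limits the precision. Groups and replicate numbers came from the labels. Normexp used median spot signals.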

Additional observations from a re-analysis of the deposited data

How the results depend on the processing

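Over all alternatives for single probes and gene means, 130 of 146 differences were above 0 and 2 passed the threshold. Many of the 146 repeat the main difference, because the filters, the replicate block and the plain tests leave it as it was. The gene means also average the same probes, so the count is not one of separate results. In the main fit 37.1% of all tested probes were above 0. The probe A_09_P133800 passed it after median-difference scaling (1.08, limma adjusted p = 0.0248). It also passed in a plain test of each probe with its own variance, before adjustment (0.89), as did 2839 of the 23003 tested probes. The difference at A_09_P090105 changed sign after median-difference scaling (0.05) and without Top3b26 3 (0.19). The gene-level differences were between 0.09 and 0.63 for roX1 and between 0.43 and 1.00 for roX2, with 0 called. Leaving out 1 array gave the same ranges, the lowest without Top3b26 2, with limma adjusted p from 0.532 to 1.0 for roX1 and from 0.316 to 0.998 for roX2. For single probes it gave -0.54 to 0.19 (A_09_P090105), 0.13 to 0.42 (A_09_P091170), 0.25 to 0.66 (A_09_P108980), 0.38 to 1.26 (A_09_P182115), 0.19 to 0.85 (A_09_P091310) and 0.66 to 1.14 (A_09_P133800).

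The count of called probes, 203, was 125 after median centring, 366 after the 75th percentile shift, 530 after median-difference scaling, 44 with the slide as a block, 123 with dim probes kept, 130 with normexp, and 2839 in the plain test unadjusted or 87 after Benjamini-Hochberg. It was between 21 without WT 2 and 498 without Top3b26 2. With the replicate number as a block it was 13, and 0 roX probes were called. Same-numbered arrays deviated with correlations of 0.564, 0.591 and -0.371. The numbers were not treated as a pairing in the main fit, and so few correlations cannot settle whether they are one.

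The change in the log2 ratio of roX1 to roX2, -0.34, was -0.23 after quantile normalization, -0.13 with normexp and -0.15 between the brightest probes. Leaving out 1 array gave -0.39 to -0.31. Groups that are apart over all arrays cannot come to overlap when 1 is left out, so overlap was not a test there. The alternatives for this ratio, and leaving out arrays after median-difference scaling, were chosen after seeing the data. For each of these changes, the cause was not tested.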

Other observations

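X-linked genes are the targets of dosage compensation, but the genes named on this array cannot be read as a measure of it. Among the named genes tested, besides roX1 and roX2, 63 were long non-coding RNAs, 13 of them X-linked. Of 30 X-linked genes with names on the array, other than roX1 and roX2, 13 were higher in Top3b26 and 0 were called. Their median difference was -0.07 (log2), with quartiles of -0.26 and 0.58. Of 139 named genes on other chromosomes, 67 were higher and 3 were called, with a median of -0.03 and quartiles of -0.30 and 0.59. Names covered 0.878% of tested probes, so these genes need not stand for their chromosomes, and the difference between these groups of genes was not tested. Of 63 other long non-coding RNAs tested, 31 were higher in Top3b26 and 0 were called by limma, where 37.1% of all tested probes were higher and 0.882% were called. These shares are of probes, while the counts by chromosome are of genes.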
